A study of Mus musculus with 6 samples.

Results

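The 8 genes described here encode proteins that bring fatty acids into liver cells, bind them inside the cell or pass them on to triglyceride. They were taken by symbol as Cd36, Fabp1, Fabp2, Fabp4, Slc27a2, Slc27a4, Vldlr and Mogat1, and all 8 were found among the 24982 genes of the count tables and passed the filter on low counts, as did 12949 genes in all. The liver came from male mice of strain C57BL/6NJ. One group of 3 samples is labelled as chow-fed and the other group of 3 as given high fat and high sugar (HFHS), a fat-rich diet with sugar in the water, and the series text gives 54 weeks of feeding for both. The labels name no transgene, drug or other allele, and give neither the age of the animals nor whether a sample was taken from tumour or from the liver around it. The series title places the diet in a model of fatty liver inflammation that goes on to liver cancer.

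Long-chain fatty acids reach the hepatocyte from the blood, where they travel bound to albumin or inside lipoproteins. CD36 and the fatty acid transport proteins of the Slc27 family act at the membrane, and the Slc27 proteins also couple the fatty acid to coenzyme A. Inside the cell, small fatty acid binding proteins (Fabp genes) hold the otherwise insoluble acid, and each tissue uses its own form: Fabp1 is the liver form, Fabp2 the intestinal form and Fabp4 the form of adipocytes and macrophages. Several of these genes are known targets of the PPAR receptors, which are switched on by fatty acids and bind DNA with the receptor RXR at paired copies of a short sequence, AGGTCA.

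The promoter windows of 3 genes are shown because Fabp1, Cd36 and Mogat1 hold the closest matches to the PPAR and RXR element among the 7 genes with a window. Fabp4 has none in the table used and was not searched. The windows cover 250 bases before to 50 after a RefSeq start site on GRCm38.p6 and are written on the strand of the gene. Capitals mark the best match on either strand to 2 copies of AGGTCA in the same direction with any 1 base between them.
Fabp1, chr6:71199629-71199928, plus strand: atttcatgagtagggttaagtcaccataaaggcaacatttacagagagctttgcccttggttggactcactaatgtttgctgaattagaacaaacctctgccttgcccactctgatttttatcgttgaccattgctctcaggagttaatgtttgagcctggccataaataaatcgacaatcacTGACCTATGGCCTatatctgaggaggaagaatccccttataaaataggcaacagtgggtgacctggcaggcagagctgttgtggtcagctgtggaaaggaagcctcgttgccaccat
Cd36, chr5:17835847-17836146, minus strand: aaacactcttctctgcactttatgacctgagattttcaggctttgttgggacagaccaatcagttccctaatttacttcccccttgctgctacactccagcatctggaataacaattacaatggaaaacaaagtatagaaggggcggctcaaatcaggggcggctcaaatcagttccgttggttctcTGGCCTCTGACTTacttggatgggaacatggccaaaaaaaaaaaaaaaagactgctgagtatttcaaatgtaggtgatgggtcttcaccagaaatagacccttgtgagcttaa
Mogat1, chr1:78510810-78511109, plus strand: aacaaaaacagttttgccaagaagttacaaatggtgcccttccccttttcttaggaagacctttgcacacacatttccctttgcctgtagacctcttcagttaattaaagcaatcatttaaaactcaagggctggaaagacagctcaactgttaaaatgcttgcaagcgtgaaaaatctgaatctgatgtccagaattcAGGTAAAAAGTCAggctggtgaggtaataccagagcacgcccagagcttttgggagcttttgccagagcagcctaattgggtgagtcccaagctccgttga
The Fabp1 match begins 67 bases before the start site, is read on the other strand as AGGCCATAGGTCA and differs from the repeat at 1 of its 12 fixed positions. A match at 1 mismatch or fewer was found in 0.554% of the 32851 promoter windows of the table. The Cd36 match, 63 bases before the start site and read as AAGTCAGAGGCCA on the other strand, and the Mogat1 match, 51 bases before it and AGGTAAAAAGTCA on the gene's own strand, each have 2 mismatches, which 3.86% of windows reach. The best matches of Fabp2 (AGTTCAAAGTGCA) and Slc27a2 (AGGTCAAAGGCGT), both on the other strand, have 3 mismatches, and 24.65% of windows hold a match with 3 or fewer. The windows of Slc27a4 and Vldlr had no match at 3 mismatches or fewer. Cd36 has several start sites and this window covers 1 of them. A match of letters is not a bound site, and the count tables do not show which start site was used.

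Of the 8 genes, Cd36 and Fabp4 rose with the HFHS diet and none fell, at an adjusted p under 0.05 over all tested genes. Cd36 rose 1.86-fold and Fabp4 4.22-fold. Vldlr was 1.89-fold higher and missed the threshold, although its 3 HFHS libraries all lay above the 3 chow libraries. Fabp1, Fabp2, Slc27a2, Slc27a4 and Mogat1 did not pass, and their diets overlapped. Labels do not say that each sample is its own animal, so p-values measure only the spread between these samples, which may be technical. The 2 rises are 25% of the 8 genes, and 11.0% of all tested genes rose. The 0 falls stand beside 3.61% that fell, and the 0 genes with all HFHS libraries below chow stand beside 18.0% of tested genes. For Cd36, Fabp4 and Vldlr the libraries of the diets did not overlap upwards, as for 21.5% of tested genes. The median log2 fold change of the 8 genes was 0.39, and that of all tested genes -0.02.

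None of the 8 genes passed when any one chow library was left out, and 3 were then at an unadjusted p under 0.05. Without chow replicate 3, 4 genes of the whole table rose and 2 fell.

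**Figure D1:**
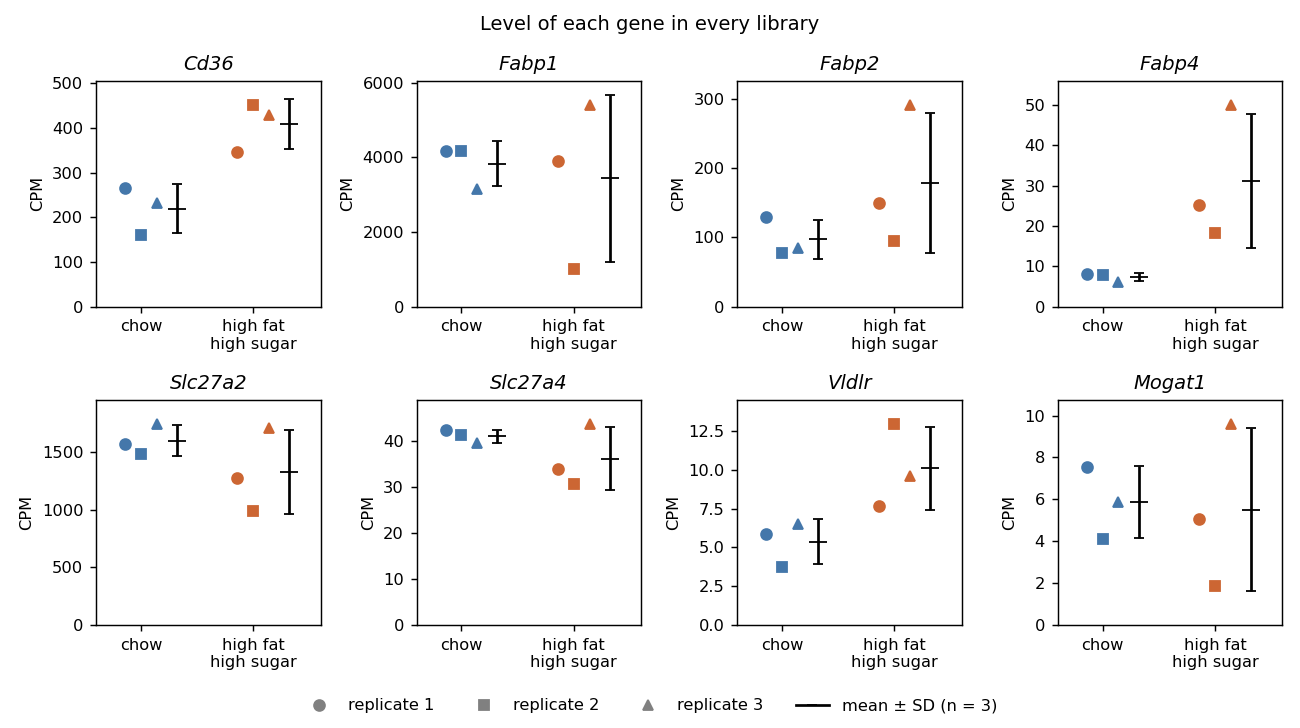
Level of each of the 8 genes in CPM (linear axes from 0) in the 3 chow libraries (blue) and the 3 HFHS libraries (orange), with a marker shape per replicate and the mean ± SD beside them. Cd36, Fabp4 and Vldlr show no overlap between diets, while the HFHS libraries of Fabp1 and Mogat1 include both the lowest and the highest of all 6.

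The libraries held 16565335 to 20585366 gene counts. Albumin (Alb), the main secreted protein of hepatocytes, took 6.53% to 8.04% of the counts of chow libraries and 7.27%, 3.05% and 5.11% of those of HFHS replicates 1, 2 and 3. HFHS replicate 2 stood apart, with Pearson correlations across genes of 0.961 and 0.957 to the other libraries of its group, which had 0.982 with each other. It had the lowest summed level of 8 hepatocyte markers, 37012 CPM against 71002 and 92452 CPM in its group and 95246 to 116574 CPM in chow. Alb made up most of this sum in each library, with 24173 CPM in HFHS replicate 2. These are bulk samples, so fewer cells of a type and less RNA per cell cannot be told apart. Calls among the 8 genes and counts of the gene lists that change without this library are given beside them.

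Cd36 encodes a scavenger receptor that takes up long-chain fatty acids and oxidised lipoproteins, in hepatocytes as well as in macrophages and capillary endothelium (chromosome 5, 17781690 to 17888959, minus strand, RefSeq on GRCm38.p6, the assembly that mm10 denotes). Its level was 265, 160 and 233 CPM in chow replicates 1, 2 and 3 (CPM, a gene's share of its library's counts after TMM scaling) and 346, 451 and 429 CPM in HFHS replicates 1, 2 and 3. The lowest HFHS library lay above the highest chow library. The means were 219 ± 54.2 and 409 ± 55.4 CPM (SD, n = 3), and the log2 fold change was 0.90 ± 0.22 (SE; edgeR, adjusted p = 0.0357). Without HFHS replicate 2 it was 0.83 (adjusted p = 0.0480). The call was lost without chow replicate 1, 2 or 3, with log2 fold changes of 1.05, 0.70 and 0.93 and adjusted p of 0.0564, 0.0935 and 0.119, and without HFHS replicate 3 at 0.85 (edgeR, adjusted p = 0.0624).

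Fabp4, the fatty acid binding protein of adipocytes and macrophages, had the larger change of the pair (chromosome 3, 10204342 to 10208616, minus strand). It stood at 8.18, 7.70 and 6.13 CPM in chow replicates 1, 2 and 3, from 147, 140 and 91 counts, and at 25.2, 18.3 and 49.9 CPM in HFHS replicates 1, 2 and 3, from 488, 475 and 894 counts. The chow libraries lay close together and HFHS replicate 3 was far above the other libraries of its diet. The log2 fold change was 2.08 ± 0.38 (SE; edgeR, adjusted p = 0.0182), and 1.56 without HFHS replicate 3 (edgeR, adjusted p = 0.0137). Leaving out chow replicate 1, 2 or 3 ended the call, at log2 fold changes of 2.16, 2.11 and 1.96 with adjusted p of 0.0512, 0.0627 and 0.0885 (edgeR).

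Vldlr encodes the very low density lipoprotein receptor, which captures triglyceride-rich lipoproteins and is usually low in healthy liver (chromosome 19, 27216480 to 27254231, plus strand). It was at 5.84, 3.74 and 6.53 CPM in chow and 7.70, 13.0 and 9.61 CPM in HFHS replicates 1, 2 and 3. The diets did not overlap, but chow replicate 3 and HFHS replicate 1 came close. Its log2 fold change was 0.92 ± 0.27 (SE; 95% interval 0.28 to 1.55; edgeR, adjusted p = 0.0612). DESeq2 called it (0.90, adjusted p = 0.0237), as did edgeR with scaling by library size only (1.22, adjusted p = 0.0389).

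**Figure D2:**
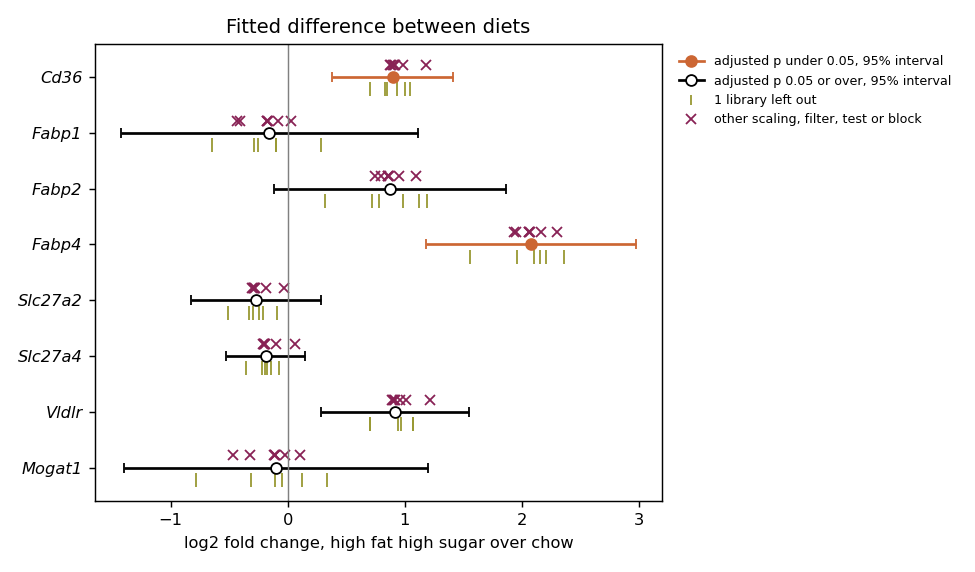
Fitted log2 fold change of each gene, HFHS over chow, with its 95% interval (circles; orange where the adjusted p is under 0.05), and the same value with 1 library left out (bars) or under another scaling, filter, test or block (crosses). Cd36 (0.90), Fabp4 (2.08) and Vldlr (0.92) stay above 0 in all of these, and the widest intervals are those of Fabp1 and Mogat1.

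Fabp1, the liver fatty acid binding protein, is among the most abundant transcripts of hepatocytes and carries most of their cytosolic fatty acid (chromosome 6, 71199879 to 71205034, plus strand). Chow libraries held 4175, 4179 and 3153 CPM, and HFHS replicates 1, 2 and 3 held 3908, 1009 and 5399 CPM. Replicate 2 of the HFHS group was the lowest of all 6 libraries and replicate 3 the highest. The log2 fold change was -0.16 ± 0.54 (SE; 95% interval -1.42 to 1.11; edgeR, adjusted p = 0.869). The interval holds changes of more than 1 log2 unit in either direction. Without HFHS replicate 2 the sign turned, to 0.29 (edgeR, adjusted p = 0.436), and with scaling by library size only it was 0.03. Per 100 Alb counts, a ratio that no scaling touches, there were 5.35, 6.04 and 3.51 Fabp1 counts in chow and 5.50, 4.17 and 10.7 in HFHS replicates 1, 2 and 3. Relative to Alb, replicate 2 therefore lay within the chow range and replicate 3 above it. Alb was itself low in HFHS replicate 2, at 24173 CPM against 69128 to 89699 CPM in chow, which raises any ratio to it. Slc27a2 came to 1.95 to 2.15 per 100 Alb counts in chow and 1.79, 4.11 and 3.40 in HFHS replicates 1, 2 and 3.

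Mogat1 encodes a monoacylglycerol acyltransferase, which adds a fatty acyl group to monoacylglycerol on a path to triglyceride that bypasses glycerol phosphate (chromosome 1, 78511060 to 78606964, plus strand). It had 7.56, 4.12 and 5.86 CPM in chow and 5.06, 1.85 and 9.61 CPM in HFHS replicates 1, 2 and 3, from 48 to 172 counts over the 6 libraries. As for Fabp1, replicate 2 of the HFHS group was lowest of all libraries and replicate 3 highest. The log2 fold change was -0.10 ± 0.55 (SE; 95% interval -1.40 to 1.20; edgeR, adjusted p = 0.919). It was 0.33 without HFHS replicate 2, 0.12 without chow replicate 1 and 0.11 with scaling by library size only, none past the threshold. In the GENCODE annotation 200 exon bases of Mogat1 lie opposite BC035947, and the strand setting of the counting is not given in the sources used here, so reads of these bases cannot be told apart.

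Fabp2, the intestinal form, shuttles fatty acids in enterocytes and is also expressed in mouse liver (chromosome 3, 122895072 to 122899506, plus strand). Its values were 130, 77.7 and 85.3 CPM in chow and 150, 94.7 and 292 CPM in HFHS replicates 1, 2 and 3. HFHS replicate 2 lay inside the chow range, and replicate 3 was more than any other library. The log2 fold change was 0.87 ± 0.42 (SE; 95% interval -0.12 to 1.86; edgeR, adjusted p = 0.201), and 0.32 without HFHS replicate 3. The enterocyte markers Alpi and Cdx2 had 0 counts in all 6 libraries, and Vil1, Lct and Sis were at or under 0.423 CPM in each. Krt20 had 0 counts in chow and at most 0.207 CPM under HFHS. Of the other 2 enterocyte markers, which hepatocytes also express, Apoa4 rose (log2 fold change 3.21 ± 0.39, SE; edgeR, adjusted p = 0.00858) and Apob did not pass. The summed level of the 8 markers, nearly all of it Apoa4 and Apob, was 7391 to 8354 CPM in chow and 7297 to 10578 CPM under HFHS.

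Slc27a2 (FATP2) is a main fatty acid transport protein and very long chain acyl-CoA synthetase of hepatocytes, and Slc27a4 (FATP4) is a more widespread member of the same family. Slc27a2 (chromosome 2, 126553024 to 126588243, plus strand) was at 1571, 1484 and 1748 CPM in chow and 1276, 992 and 1712 CPM in HFHS replicates 1, 2 and 3. Slc27a4 (chromosome 2, 29802634 to 29817522, plus strand) was at 42.3, 41.3 and 39.6 CPM in chow and 33.9, 30.6 and 43.8 CPM under HFHS. For both genes HFHS replicates 1 and 2 lay below all chow libraries and replicate 3 did not. The log2 fold changes were -0.27 ± 0.24 (95% interval -0.83 to 0.29) for Slc27a2 and -0.19 ± 0.14 (95% interval -0.52 to 0.15) for Slc27a4 (SE; edgeR, adjusted p = 0.475 and 0.411). Slc27a4 turned to 0.07 with scaling by library size only. In the GENCODE annotation 419 exon bases of Slc27a2 lie opposite the noncoding gene Gm26697, with the same limit on strand as for Mogat1.

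The 3 HFHS libraries split the 8 genes by pattern. In Fabp1, Fabp2, Fabp4, Slc27a2, Slc27a4 and Mogat1 replicate 3 was the highest and replicate 2 the lowest of the group. In Cd36 and Vldlr replicate 2 was the highest and replicate 1 the lowest. The order held for all but Slc27a4 when counts were divided by library size alone. Slc27a4 then took 0.00347%, 0.00387% and 0.00444% of gene counts in replicates 1, 2 and 3. The highest HFHS library was 5.35 times the lowest for Fabp1, 5.20 times for Mogat1, 3.08 times for Fabp2 and 2.73 times for Fabp4, against 1.33, 1.83, 1.67 and 1.33 times in chow. Among the 10989 genes with a mean count of at least 50, the median of this ratio under HFHS was 1.32, and Fabp1 stood at the 98.9th percentile, Mogat1 at the 98.8th, Fabp2 at the 96.7th and Fabp4 at the 95.4th. Cd36 had a ratio of 1.30, at the 47.9th percentile. With 3 libraries a group these spreads are a description and have no test.

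**Figure D3:**
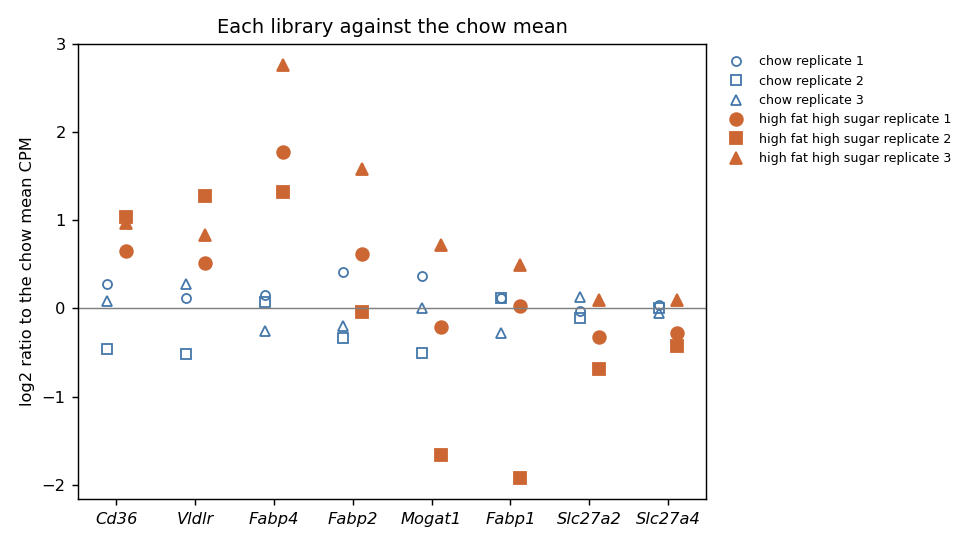
Log2 ratio of each library's CPM to the mean of the 3 chow libraries (0 line), for the 8 genes on the horizontal axis, with open blue markers for chow and filled orange markers for HFHS replicates 1 (circle), 2 (square) and 3 (triangle). The square of replicate 2 lies at 1.04 for Cd36 and 1.27 for Vldlr but at -1.93 for Fabp1 and -1.66 for Mogat1.

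Correlations over the 6 libraries are given as descriptions, since all pairs share the same libraries and diets. Pearson's r of log2 CPM was 0.96 between Cd36 and Vldlr, 0.90 between Fabp1 and Mogat1 and 0.92 between Slc27a2 and Slc27a4, and -0.58 between Fabp1 and Vldlr. Fabp4 followed Fabp2 (0.84) more closely than Fabp1 (0.08). By the same measure, among 10705 named genes with a mean count of at least 50, Cd36 was most like Mcm2 (r = 0.994), Bak1 (0.993) and Fcgr4 (0.988). Fabp1 was most like Surf4 (0.997), Ech1 (0.996) and Pycrl (0.994), and Mogat1 most like Rnf181 (0.996), Coq6 (0.993) and Rab1b (0.988). Fabp2 followed Med22 (0.996), Gal3st1 (0.981) and Psmd13 (0.977), and Fabp4 followed Galnt1 (0.994), Svs2 (0.991) and Myct1 (0.989). Svs2 had 0 counts in every chow library and 58, 30 and 623 counts in HFHS replicates 1, 2 and 3. Slc27a2 lay closest to Glrx5 (0.997), Prelid1 (0.994) and Them7 (0.993). The nearest genes for Slc27a4 were Pex3 (0.997), Tmem184a (0.996) and Tdp2 (0.996), and for Vldlr Snx1 (0.994), Tmem125 (0.993) and Irak3 (0.991). With 6 points such values are common: 17 to 124 genes passed 0.95 for each of the 8.

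Levels of different genes were compared per kilobase of transcript. In chow the order was Fabp1 (6935 ± 1069 CPM per kilobase, SD), Slc27a2 (549 ± 46.0), Fabp2 (101 ± 29.3), Cd36 (64.5 ± 15.9), Slc27a4 (10.1 ± 0.340), Fabp4 (8.19 ± 1.20), Mogat1 (4.76 ± 1.40) and Vldlr (0.674 ± 0.182). Fabp1 was the 4th most abundant of 12860 genes by this measure. The libraries of neighbours in this order did not overlap in chow, though Fabp2 and Cd36 differed by less than the sum of their SDs. In the HFHS group Fabp4 (34.8 ± 18.6) stood above Slc27a4 (8.91 ± 1.69) in all 3 libraries. Fabp2 (185 ± 105) and Cd36 (120 ± 16.3) overlapped there, as did Slc27a4 with Mogat1 (4.48 ± 3.18) and Mogat1 with Vldlr (1.27 ± 0.335). Cd36 counts came to 16.9, 10.8 and 13.3 per 100 Slc27a2 counts in chow and to 27.1, 45.4 and 25.1 in HFHS replicates 1, 2 and 3, a ratio free of scaling that did not overlap between diets.

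**Figure D4:**
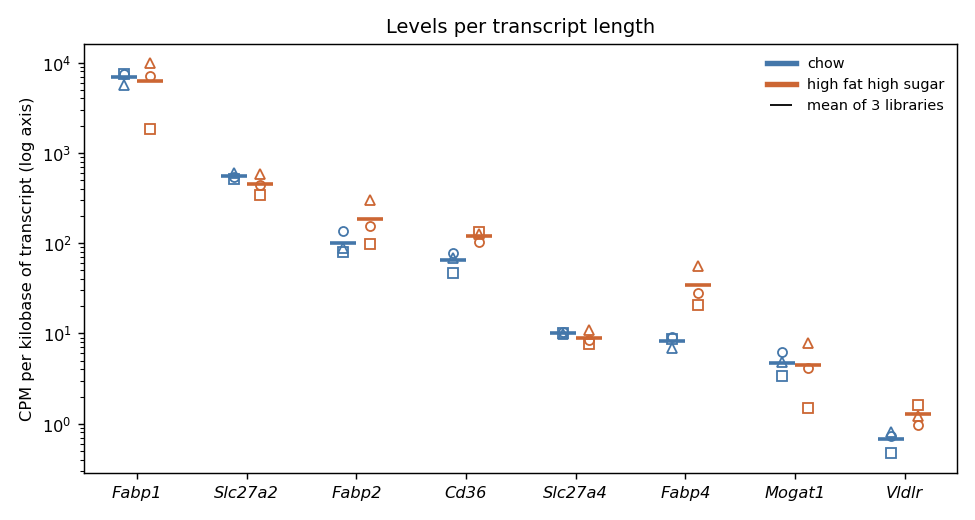
CPM per kilobase of transcript on a log axis for the 8 genes in order of their chow mean, with the 3 chow libraries in blue, the 3 HFHS libraries in orange and a dash at each mean. Fabp1 lies highest at a chow mean of 6935 and Vldlr lowest at 0.674, and Fabp4 passes Slc27a4 under HFHS.

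Several of these genes are expressed by cells other than hepatocytes, and markers of those cells differed between diets. Of all tested genes 11.0% rose and 3.61% fell. Of 10 macrophage markers 8 rose and 1 (Marco) fell, and their summed level was 268 to 379 CPM in chow and 827 to 1569 CPM under HFHS, highest in replicate 2. Of 7 markers of lipid-associated macrophages 5 rose, with sums of 416 to 532 and 835 to 1689 CPM, also highest in replicate 2. Ctsd, which did not pass, made up most of this sum in each library. Of 9 endothelial markers 6 rose, with sums of 240 to 287 and 358 to 435 CPM, in the HFHS group lowest in replicate 2. Of 8 stellate cell markers 7 rose, from 240 to 283 CPM to 572 to 845 CPM, highest in replicate 2. No marker in these 4 lists was at 0 in all libraries. Without chow replicate 3 none of the 4 lists had a call, in a test that called 4 genes higher in all, and the medians of the log2 fold changes were 1.79, 2.85, 0.73 and 1.20 against 1.82, 2.96, 0.78 and 1.32 with all libraries. Without HFHS replicate 2 the rises numbered 8, 5, 7 and 7, and the fall of Marco was not called. Within the HFHS group, replicate 2 was highest in Cd36 and Vldlr (451 and 13.0 CPM) but lowest in Fabp4 (18.3 CPM). The part of these cells in the rises of Cd36, Fabp4 and Vldlr was not tested.

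Adipocyte genes were examined because Fabp4 is a marker of fat cells. Leptin (Lep) had 0 counts in all 6 libraries, and Adipoq and Plin1, also adipocyte markers, had 0 counts in all 3 HFHS libraries and at most 0.167 CPM in chow. Cfd and Cidea, which lipid-laden hepatocytes can also express, were at 37.0 and 76.0 CPM in HFHS replicate 3, the library highest in Fabp4, and at 0.154 and 2.16 CPM in replicate 2. Neither passed the test. The 9 adipocyte markers summed to 11.1 to 33.9 CPM in chow and to 18.1, 3.08 and 114 CPM in HFHS replicates 1, 2 and 3, most of it Cfd and Cidea. The other 4 markers, Retn, Adig, Tusc5 and Nnat, were at or under 0.539 CPM in each library. The list sum was highest in the library highest in Fabp4, and its part in the level of Fabp4 was not tested.

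**Figure D5:**
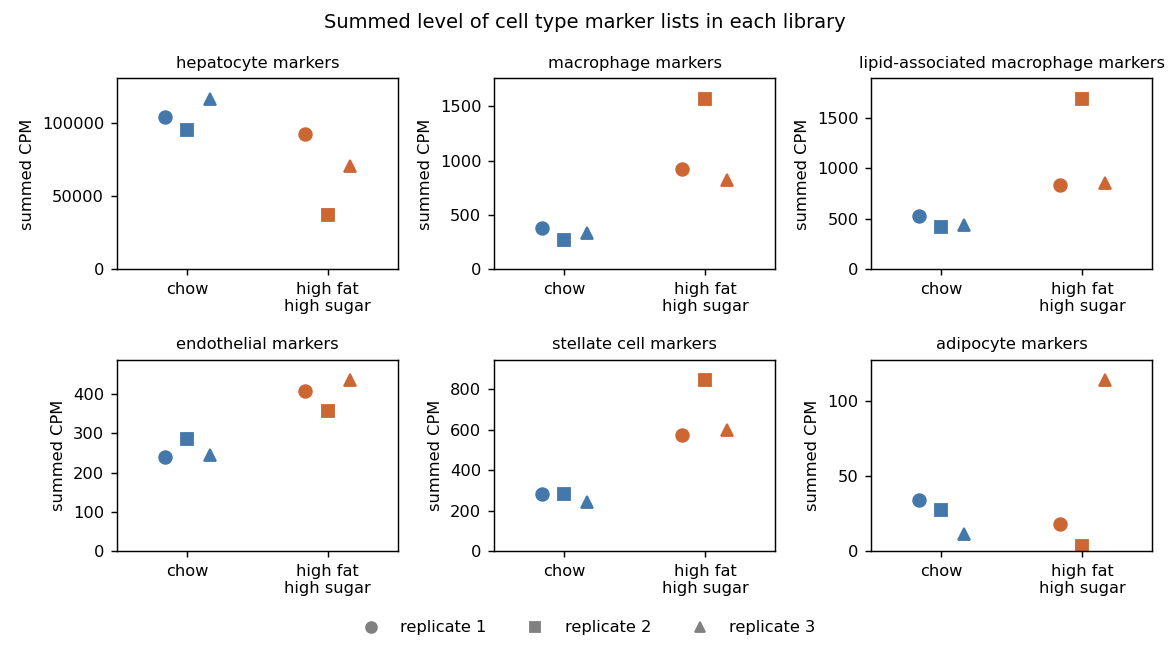
Summed CPM (linear axes from 0) of 6 cell type marker lists in each library, chow in blue and HFHS in orange, with a marker shape per replicate. Macrophage, lipid-associated macrophage, endothelial and stellate cell sums are higher in all 3 HFHS libraries, the hepatocyte sum is lowest in replicate 2 (37012 CPM), and the adipocyte sum is highest in replicate 3 (114 CPM).

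The rest of each gene family was read from the same fit. In it 14.6% of all tested genes passed, 11.0% upwards and 3.61% downwards. Among other fatty acid transport proteins 0 of 3 tested genes passed with edgeR, with 1 at an unadjusted p under 0.05. Slc27a5 (FATP5), which activates bile acids as well as fatty acids, was at 1605, 1263 and 1647 CPM in chow and 830, 386 and 879 CPM in HFHS replicates 1, 2 and 3, with no overlap. Its log2 fold change was -1.11 ± 0.32 (SE; edgeR, adjusted p = 0.0588), and it passed with DESeq2 (-1.13, adjusted p = 0.00197), with no filter on low counts (-1.13, adjusted p = 0.0449), with library size only (-0.88, adjusted p = 0.0442) and without HFHS replicate 2 (-0.81, adjusted p = 0.0219). Slc27a1 and Slc27a3 had log2 fold changes of 0.08 ± 0.34 and 0.30 ± 0.33 (SE) and overlapped between diets.

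Of 8 tested other fatty acid and acyl-CoA binding proteins 1 rose and 1 fell. Fabp7, the form first known from brain, went from 3.34, 2.20 and 2.36 CPM in chow to 9.35, 19.1 and 11.8 CPM in HFHS replicates 1, 2 and 3. Its log2 fold change was 2.35 ± 0.31 (SE; edgeR, adjusted p = 0.0101), and the call was lost without chow replicate 3 (2.27, adjusted p = 0.0579). Acbd6, an acyl-CoA binding protein, fell by 0.52 ± 0.14 on the log2 scale (SE; edgeR, adjusted p = 0.0446), and the call was lost without any one library except HFHS replicate 3, at adjusted p from 0.0686 to 0.133, with library size only (-0.26, adjusted p = 0.208), with upper-quartile scaling (-0.43, adjusted p = 0.0648) and with limma-voom (-0.53, adjusted p = 0.0543). Fabp5, the epidermal form that macrophages also express, was above chow in all 3 libraries (log2 fold change 1.52 ± 0.49, SE) and did not pass (edgeR, adjusted p = 0.0835), but it passed with DESeq2 (1.51, adjusted p = 0.00628) and with library size only (1.74, adjusted p = 0.0466). Acbd5, a peroxisomal acyl-CoA binding protein, was below chow in all 3 (-0.51 ± 0.15, SE; edgeR, adjusted p = 0.0565) and passed with DESeq2 (-0.53, adjusted p = 0.000925). Dbi, the main acyl-CoA binding protein of the cytosol, was at 647, 161 and 655 CPM in HFHS replicates 1, 2 and 3 against 612 to 856 CPM in chow, low in the same library as Fabp1. Fabp3 had at most 1 count in each chow library and was not tested, and Fabp6 had 0 counts in all 6.

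Lipoprotein lipase (Lpl), which frees fatty acids from circulating triglyceride, was the 1 gene of 13 tested lipoprotein receptors and lipases to rise. It was at 17.7, 31.1 and 12.6 CPM in chow and 116, 263 and 91.7 CPM in HFHS replicates 1, 2 and 3, highest in the library that was highest in Cd36 and Vldlr. Its log2 fold change was 2.94 ± 0.52 (SE; edgeR, adjusted p = 0.0179), and 2.34 without HFHS replicate 2. It did not pass without chow replicate 1 (2.83, adjusted p = 0.0582) or 3 (2.67, adjusted p = 0.0787). Hepatic lipase (Lipc) was the 1 that fell, by 0.73 ± 0.13 on the log2 scale (SE; edgeR, adjusted p = 0.0148), and it did not pass without chow replicate 2 (-0.69, adjusted p = 0.0576) or 3 (-0.77, adjusted p = 0.0706). The receptor gene Scarb1 was above chow in all 3 libraries (0.39 ± 0.12, SE; edgeR, adjusted p = 0.0604) and did not pass, but it passed with DESeq2 (0.37, adjusted p = 0.0120), with library size only (0.66, adjusted p = 0.0228) and with upper-quartile scaling (0.48, adjusted p = 0.0327).

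Downstream of uptake, 0 of 4 tested long-chain acyl-CoA synthetases and 0 of 15 triglyceride synthesis enzymes passed with edgeR, beside 14.6% of tested genes. At an unadjusted p under 0.05 there were 0 of the synthetases and 2 of the synthesis enzymes (Gpat2 and Dgat1). DESeq2, run without the filter on low counts, called 1 synthetase lower and 0 synthesis enzymes. Its genes included Acsl6, left out of the edgeR test, at 2, 24 and 4 counts in chow and 0, 0 and 2 under HFHS. With library size only, edgeR called 1 synthetase, Acsl4, higher (0.75, adjusted p = 0.0430). Acsl1, the main hepatic form, had a log2 fold change of -0.41 ± 0.34, Acsl4 of 0.50 ± 0.25 and Acsl3 of 0.14 ± 0.24 (SE). Gpat2 (0.83 ± 0.30, SE) and Lpin3 (0.33 ± 0.15, SE) were above chow and Dgat1 (-0.33 ± 0.14, SE) below it in all 3 libraries without passing. Dgat2, which makes most hepatic triglyceride, was at -0.31 ± 0.18 (SE), and Mogat2, the intestinal partner of Mogat1, was at or under 1.56 CPM in every library.

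The PPAR receptors and their partners showed 0 of 10 calls with edgeR, 0 at an unadjusted p under 0.05 and 0 with DESeq2. Of all tested genes 14.6% passed with edgeR. Pparg, which is low in healthy liver, was at 34.4, 25.3 and 25.4 CPM in chow. In HFHS replicates 1, 2 and 3 it was at 25.6, 23.7 and 52.7 CPM. Replicate 3 was also the highest of the HFHS group in Fabp1, Fabp2, Fabp4, Slc27a2, Slc27a4 and Mogat1. Ppara overlapped between diets (-0.29 ± 0.19, SE), as did Ppard (0.37 ± 0.20, SE) and Ppargc1b (-0.81 ± 0.38, SE), while Rxra was below chow in all 3 libraries (-0.28 ± 0.17, SE) and did not pass. Of 24 other PPAR target genes 2 rose: the hormone gene Fgf21 (4.44 ± 0.36, SE; edgeR, adjusted p = 0.00536), from 4 to 11 counts in each chow library, and Cyp4a31 (2.18 ± 0.30, SE; edgeR, adjusted p = 0.0101), whose call was lost without chow replicate 3 (2.19, adjusted p = 0.0579). Cidec, a lipid droplet protein, was at 76.6, 57.1 and 225 CPM in HFHS replicates 1, 2 and 3 against 30.4 to 57.7 CPM in chow and did not pass (edgeR, adjusted p = 0.112), but it passed with DESeq2 (1.53, adjusted p = 0.00813). The share of this list that rose, 8.33%, lies near the 11.0% of all tested genes.

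Caveolae are membrane pits that have been linked to fatty acid uptake together with CD36. Of 8 genes of caveolae and membrane partners 5 rose, 62.5% against 11.0% of all tested genes, with a median log2 fold change of 0.75. The coat gene Cavin1 went up by 1.38 ± 0.22, Cav2 by 0.95 ± 0.20 and the kinase gene Lyn, which acts downstream of CD36 and is mostly found in blood cells, by 0.70 ± 0.14 (SE; edgeR, adjusted p = 0.0128, 0.0222 and 0.0211). Cav1 was at 2.78, 8.25 and 7.27 CPM in chow and 4.50 to 4.75 CPM under HFHS and did not pass. The count of rises was 4 without HFHS replicate 2, 3 with limma-voom and 1, 1 and 0 without chow replicates 1, 2 and 3. Cav2 and Lyn lost their calls without any one chow library, and Cavin1 without chow replicate 3. Of 9 endothelial markers 6 rose as well, and their sum was the lowest of the HFHS group in replicate 2 (358 CPM). Macrophage markers (8 of 10 rose, 1 fell) and stellate cell markers (7 of 8 rose) had their highest sums of the group in replicate 2, at 1569 and 845 CPM. Cavin1, Cav2, Fyn and Lyn, which rose, were highest of the group in that library, and Cavin2, which also rose, was lowest. The part of endothelial cells, macrophages or stellate cells in these rises was not tested.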

How the data were processed

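PolyA RNA of 6 liver samples was sequenced from libraries made with a stranded kit, per the labels' protocols. Reads were aligned with STAR to mm10, per the submitters' processing notes. The sources used here give no counting program, annotation, strand setting or software version. The authors deposited whole-number counts of reads per gene symbol, not normalised. The rows for reads outside genes (7.74% to 10.6% of all counts) and ambiguous reads (0.615% to 0.862%) entered neither library sizes nor tests.

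Genes were filtered with filterByExpr (minimum count 10), scaled by TMM and tested with the quasi-likelihood F test of edgeR 4.0.16 in R 4.3.3, with robust dispersion and Benjamini-Hochberg adjustment over all 12949 tested genes at 0.05. The SE is the log2 fold change divided by the root of F, and intervals are at 95%. Levels are TMM-scaled CPM, given as mean ± SD. A count of 3 corresponds to 0.115 to 0.202 CPM, which covers counting error only. Lengths are those of the longest principal transcript in GENCODE vM21, and correlations use log2 CPM with a prior count of 2. Promoters came from RefSeq on GRCm38.p6, with windows for 7 of the 8 genes. DESeq2 1.42.0 and limma 3.58.1 (limma-voom) served as alternatives, beside other scalings, no filter, a replicate block and each library left out. The code was tested on simulated data. No pair of replicates was a copy (chi-square per gene at least 23.5).

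The 8 genes and all lists were chosen with earlier results of these data known. Besides the 8 genes, each list names its 3 genes with the smallest p, the leading call in the minority direction and some genes named whatever their value, of which 1 is not reported here. For likeness the 3 genes with the highest correlation are named, leaving out predicted genes. Outside that rule, Acsl6, Cav1, Cavin2, Fyn, Fabp6 and the named cell type markers were chosen after their values were seen.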

Additional observations from a re-analysis of the deposited data

How the results depend on the processing

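Of the 8 genes, 2 rose with RLE or upper-quartile scaling, no filter or limma-voom, 3 with library size only or DESeq2, and 0 to 2 with 1 library left out. With 1 library left out, 4 to 1664 genes of the whole table rose and 2 to 772 fell. With library size only 200 genes fell, and with DESeq2 1006. Library size only shifted the median log2 fold change of all genes by 0.27, and 90.6% of calls were then higher, against 75.3% in the reported test and 65.0% with DESeq2. With library size only Vldlr passed at 1.22 and Fabp1, Slc27a4 and Mogat1 turned to 0.030, 0.066 and 0.11, and DESeq2 called Vldlr at 0.90. Leaving out 1 library gave 0.70 to 1.05 for Cd36, 1.56 to 2.36 for Fabp4, 0.70 to 1.08 for Vldlr, 0.32 to 1.19 for Fabp2, -0.65 to 0.29 for Fabp1, -0.51 to -0.09 for Slc27a2, -0.36 to -0.07 for Slc27a4 and -0.78 to 0.33 for Mogat1. Mogat1 was 0.12 without chow replicate 1 and 0.33 without HFHS replicate 2, and Fabp1 was 0.29 without the latter. For 31 other genes, 362 of 403 values kept direction and side of the threshold, 22 lost it, 13 gained it and 6 turned. Those were Slc27a1 (-0.22 to 0.37 with 1 library left out, -0.03, -0.06 and -0.22 without chow replicate 1, chow replicate 2 and HFHS replicate 2), Acsl3 (-0.04 and -0.13 without chow replicate 2 and HFHS replicate 1) and Pparg (-0.21 to 0.47, below 0 without HFHS replicate 3). Fits with 1 library left out have fewer samples, and the cause of the changes between settings was not tested. Mogat1, Vldlr and Fabp4 rest on 48 to 894 counts a library, which limits their precision.

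Both diets have replicates numbered 1 to 3, but deviations of same-numbered samples correlated at -0.25, -0.17 and 0.03, so the numbers were not taken as pairs. With the replicate block 1 of the 8 genes rose (Fabp4, 1.95), Cd36 did not pass at 0.92 (edgeR, adjusted p = 0.0710), Slc27a5 passed at -1.19 (adjusted p = 0.0389), Acbd6 did not at -0.52 (adjusted p = 0.0579), and 961 genes rose and 282 fell in all.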

Other observations

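Of 6 cholangiocyte markers 5 rose, 83.3% against 11.0% of all tested genes, and 4 rose without HFHS replicate 2. Their summed levels were 23.8 to 43.8 CPM in chow and 171 to 287 CPM in the HFHS libraries, highest in replicate 2. Spp1 made up most of this sum in each library, at 18.3 to 39.5 CPM in chow and 161 to 264 CPM under HFHS. It is also in the list of lipid-associated macrophage markers, so the 2 lists share this gene. Of 6 tested lymphocyte markers 1 (Ncr1) rose, 16.7% against 11.0% of all tested genes, and the sums of all 8 listed were 2.83 to 5.39 CPM in chow and 6.15 to 12.2 CPM in the HFHS libraries. Of 8 tested hepatocyte markers 0 rose and 1 (Serpina1a) fell, 12.5% against 3.61% of all tested genes, and 2 fell without HFHS replicate 2. Their median log2 fold change was -0.71, and 4 of the 8 lay below chow in all 3 HFHS libraries, beside 18.0% of tested genes. With DESeq2 4 fell and with RLE scaling 2. With library size only, upper-quartile scaling, no filter, limma-voom or the replicate block 0 fell. The part of these cells in the levels of the 8 genes was not tested.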
